A study of Rattus norvegicus with 6 samples.

Results

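The NR4A family of orphan nuclear receptors was examined in GH3 cells, a somatolactotroph line from a rat pituitary tumour that secretes prolactin and growth hormone, with and without thyrotropin-releasing hormone (TRH). The family comprises 3 genes, Nr4a1 (ENSRNOG00000007607), Nr4a2 (ENSRNOG00000005600) and Nr4a3 (ENSRNOG00000005964), chosen by these Ensembl identifiers. All 3 were present among the 18413 genes of the deposited table. The symbols were taken as given with the identifiers, because the tables hold identifiers only. RNA was sequenced from 3 control libraries, whose treatment label reads NC, and 3 libraries of cells given 100 nM TRH. All libraries came from wild-type GH3 cells in F10 medium with horse and fetal bovine serum. GH3 is a single tumour line. The sources used here do not give the duration of the treatment, nor whether each library had a culture of its own, so the p-values below measure a spread that may be technical.

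NR4A proteins are transcription factors of the nuclear receptor family whose ligand-binding pocket is filled by their own side chains, so that their activity depends largely on how much protein is made and how it is modified. They bind a DNA element called the NBRE as monomers and a related palindrome, the NurRE, as dimers, and Nr4a1 and Nr4a2 also pair with the retinoid X receptor. Their genes are classic immediate early genes, transcribed rapidly and briefly after signals that raise cAMP or calcium or activate MAP kinases. In the pituitary, Nr4a1 is best known for driving the Pomc gene in corticotrophs. The TRH receptor couples to Gq, phospholipase C, calcium release and protein kinase C, and so feeds into such signals.

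The window listed as the promoter of Nr4a1, a gene known to respond to cAMP, is shown because Nr4a1 was the most abundant member by far. It was also chosen for its CRE half-sites, the short core of the element that the cAMP-responsive factor CREB binds. The Nr4a1 window held more of them than the window listed for Nr4a2. Nr4a1 and Nr4a2 were the 2 of 3 members matched by symbol in the RefSeq promoter table. The stretch is the 250 bases before the RefSeq start, at chr7:134259888-134260137 on the plus strand of GRCr8. This start lies inside the gene's RefSeq span, downstream of the starts of longer transcripts. Capitals mark the CRE half-site, CGTCA or its reverse complement TGACG.
Nr4a1: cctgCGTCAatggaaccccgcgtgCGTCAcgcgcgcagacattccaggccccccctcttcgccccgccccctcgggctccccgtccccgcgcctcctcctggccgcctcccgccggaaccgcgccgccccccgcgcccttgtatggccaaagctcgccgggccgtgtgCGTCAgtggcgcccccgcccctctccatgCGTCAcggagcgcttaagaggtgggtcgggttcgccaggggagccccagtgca
The 4 half-sites began 246, 226, 82 and 53 bases before the start. At least 4 half-sites were found in 0.173% of the 33469 RefSeq promoter windows of this length, and at least 1 in 18.2%. The window is also rich in G and C, at 74.8%, more than 96.4% of windows; of the 1201 windows with at least that content, 0.250% held 4 or more half-sites. The Nr4a2 window (chr3:62104888-62105137, minus strand, GRCr8) held 1 half-site. Its start also lies inside the gene's RefSeq span. Both windows may therefore cover transcribed sequence of longer transcripts, so their counts cannot be taken as those of a promoter alone. The full CRE, TGACGTCA, which contains both half-sites, occurred 0 times in either window and in 1.59% of all windows. The NBRE, AAAGGTCA on either strand, to which the NR4A proteins themselves bind, also occurred 0 times in both windows, against 1.24% of all windows. The Nr4a1 window was shown partly for its half-site count, so the rarity of that count is a description and no test. These matches describe letters only, and no binding was measured in this series.

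Library totals ran from 43504159 to 52134239 counts. Libraries within a group differed by more than sampling noise, at 13.7 to 110.0 chi-square per degree of freedom, and control replicate 1 and TRH replicate 3 stood apart by the relative level of long genes. With TRH, 0 of 14050 genes tested passed adjustment in edgeR's quasi-likelihood test (0% called), 1263 had an unadjusted p under 0.05, and DESeq2 called 106 (0.835% of the genes it adjusted). The gene reference used here holds Ensembl identifiers in 0 of its 47357 rows, so none of the 18413 identifiers could be paired with a symbol. The pituitary markers of GH3 cells, the retinoid X receptors, the CREB and MEF2 factors upstream of NR4A transcription, the other immediate early genes and the known NR4A targets are therefore not analysed here.

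Nr4a1 was the dominant NR4A transcript in GH3 cells, Nr4a3 came next and Nr4a2 was lowest, and this order held in all 6 libraries on the per-length TPM scale. Nr4a1, also called Nur77 or NGFI-B, had a mean of 71.8 TPM, above 87.2% of the genes in the table. Nr4a3, also called NOR-1, had a mean of 5.02 TPM (above 44.9%), and Nr4a2, also called Nurr1 and needed for midbrain dopamine neurons, a mean of 3.20 TPM (above 39.8%). The median over all genes in the table was 7.21 TPM. The lower neighbours, Nr4a3 and Nr4a2, were separated in the controls, where every Nr4a3 value exceeded every Nr4a2 value, but their ranges overlapped across the TRH libraries. The summed level of the 3 genes was 78.1 ± 15.3 TPM for the controls against 81.9 ± 7.94 TPM for the TRH libraries (SD, n = 3 each), which differ by less than the spread of the controls.

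**Figure D1:**
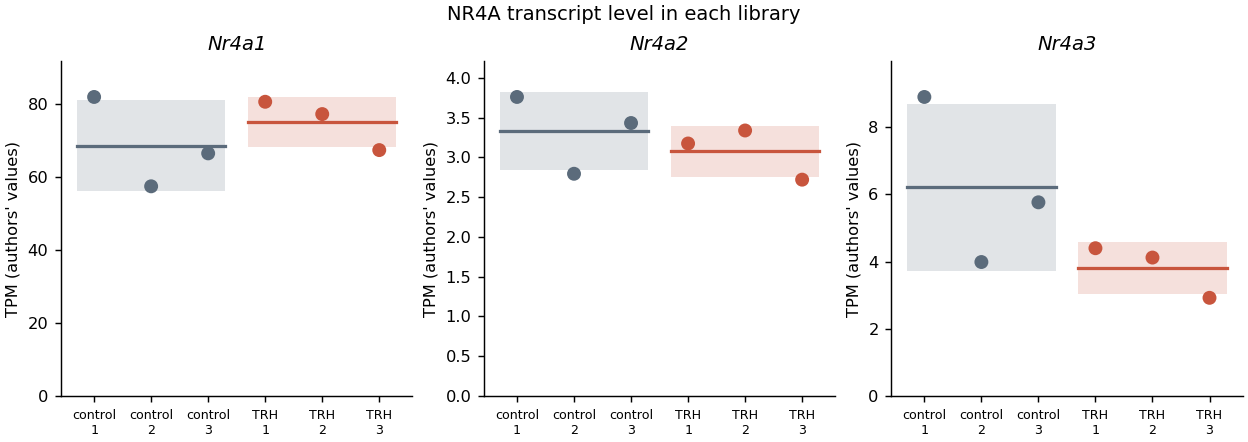
TPM of Nr4a1, Nr4a2 and Nr4a3 (vertical axes, each from 0) in the 3 control libraries (grey) and the 3 TRH libraries (red), with the group mean as a line and 1 SD as a band. The groups overlap for every gene, and control replicate 1 has the highest value of all 6 libraries in each panel.

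Nr4a1 was not called with TRH. Its level was 81.9, 57.4 and 66.5 TPM in control replicates 1, 2 and 3, and 80.6, 77.2 and 67.4 TPM in TRH replicates 1, 2 and 3. Control replicate 1 lay above all TRH libraries on this scale, whereas the other controls lay below them. In CPM scaled by TMM, which uses the genes of all libraries to set the scale, the controls had 128.3, 97.4 and 105.9 and the TRH libraries 131.9, 125.6 and 123.3. On that scale all 3 TRH libraries lay above the control mean, 1 of them above the highest control, and the TRH values spread less than the controls.

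The fitted log2 fold change of Nr4a1 was 0.20 (SE 0.12, 95% interval -0.07 to 0.47), a 1.15-fold higher level, and edgeR's quasi-likelihood test gave an unadjusted p = 0.123 and an adjusted p = 0.622. Given as a fold, the interval ran from 0.955 to 1.38, so a doubling of Nr4a1 lay outside it. That interval is unadjusted, rests on a spread that may be technical, and covers only the time of sampling, which is not given. A two-sided exact permutation test of log2 CPM gave p = 0.3, where 0.1 is the smallest value that 3 libraries against 3 allow. Of all genes tested, 82.7% had a lower fold change. The value depended on single controls. Without control replicate 1 the log2 fold change was larger, at 0.32 (edgeR unadjusted p = 0.00698, adjusted p = 0.795). Without control replicate 2 it was smaller, at 0.12 (edgeR unadjusted p = 0.367, adjusted p = 0.673).

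Nr4a2 showed no call and almost the same level in both groups. Its TPM was 3.76, 2.79 and 3.43 in control replicates 1, 2 and 3, and 3.18, 3.34 and 2.72 in TRH replicates 1, 2 and 3. The TRH values lay within or just below the range of the controls. The log2 fold change was -0.04 (SE 0.15, 95% interval -0.38 to 0.29), with an unadjusted p = 0.768 and an adjusted p = 0.928 in edgeR's test, and the exact permutation test gave p = 0.7 (two-sided). As a fold the interval ran from 0.767 to 1.23. The counts behind these values were small, 275 to 342 per library. Among the TRH libraries their variance was 1.15 times that of Poisson counting, and among the controls 3.50 times.

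Nr4a3 was the member with the largest difference, lower with TRH, and it did not pass adjustment. Its TPM was 8.91, 3.99 and 5.77 in control replicates 1, 2 and 3, and 4.40, 4.12 and 2.92 in TRH replicates 1, 2 and 3. Control replicates 1 and 3 lay above all TRH libraries, while control replicate 2 lay among them, so the groups overlapped. In TMM-scaled CPM the controls had 23.0, 11.2 and 15.2 and the TRH libraries 11.9, 11.1 and 8.84. All 3 TRH libraries lay below the control mean on that scale, and 2 lay below the lowest control, TRH replicate 2 by a small margin.

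The fitted log2 fold change of Nr4a3 was -0.63 (SE 0.26, 95% interval -1.22 to -0.04), or 0.644 of the control level, and edgeR's quasi-likelihood test gave an unadjusted p = 0.0382 and an adjusted p = 0.533. The exact permutation test gave p = 0.2 (two-sided). Nr4a3 was thus the 1 member of 3 with an unadjusted p under 0.05, against 8.99% of all genes tested (6.95% lower and 2.04% higher with TRH). Only 3.13% of genes had a lower fold change. DESeq2's Wald test gave an adjusted p of 0.328 for Nr4a3. The control replicates of Nr4a3 were spread by an SD of 0.52 in log2 CPM, more than in 90.1% of genes tested, where the median SD was 0.20. Control replicate 1 carried much of the difference: without that library the log2 fold change was -0.31 (edgeR unadjusted p = 0.148, adjusted p = 0.964), and without it and TRH replicate 3 together -0.20 (edgeR unadjusted p = 0.289, adjusted p = 0.809). Without control replicate 2 it was -0.85 (edgeR unadjusted p = 0.00426, adjusted p = 0.307).

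**Figure D2:**
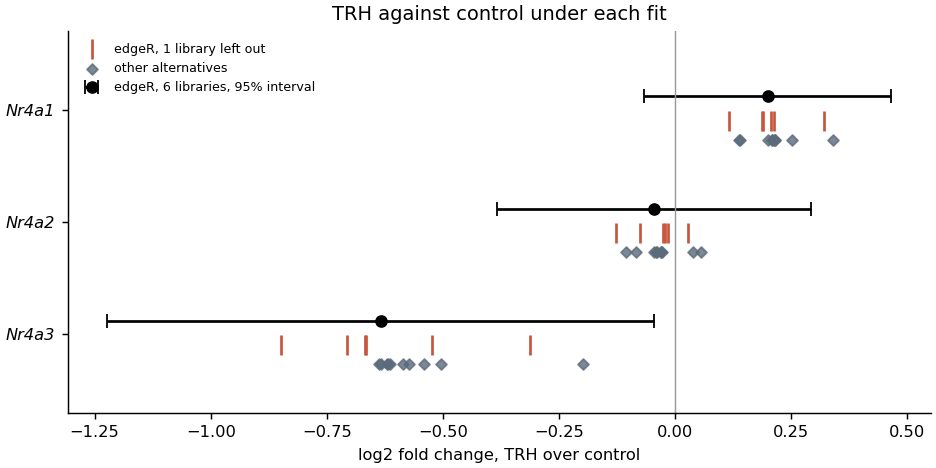
Log2 fold change of TRH over control for each gene (horizontal axis): the edgeR estimate with its 95% interval (black), the 6 edgeR fits with 1 library left out (red ticks) and the 10 other alternatives (grey diamonds). Nr4a1 stays above 0 and Nr4a3 below 0 in all fits shown, Nr4a2 lies on both sides of 0, and the Nr4a3 fits reach from -0.85 to -0.20.

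Across the family, 0 of 3 members had control and TRH values of CPM that did not overlap, against 6.80% of all genes tested that were higher and 10.2% that were lower with TRH in this way. The median log2 fold change of the 3 members was -0.04, and that of all genes tested was -0.00398. Nr4a1 and Nr4a2 lay well inside the cloud of genes of like abundance in the plot of fold change against abundance, and Nr4a3 towards its lower edge.

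**Figure D3:**
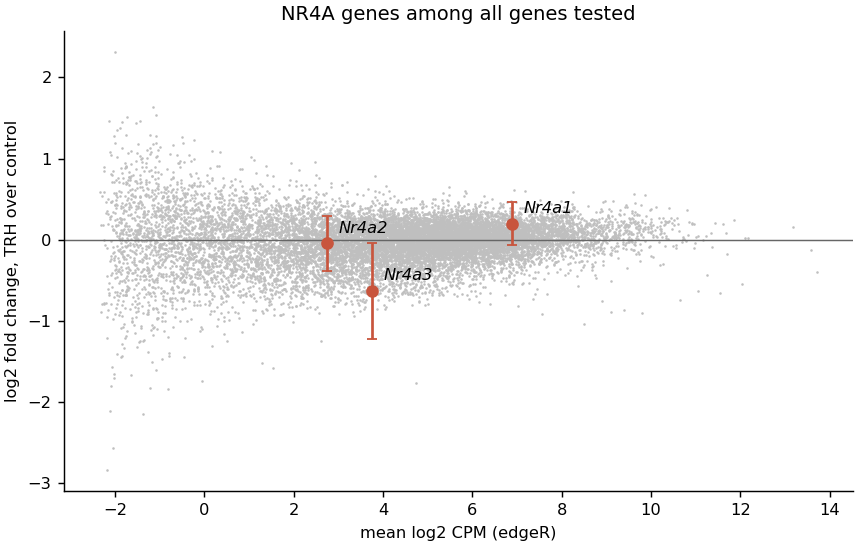
Log2 fold change of TRH over control (vertical axis) against mean log2 CPM (horizontal axis) for the 14050 genes tested (grey), with the 3 NR4A genes and their 95% intervals in red. The intervals of Nr4a1 and Nr4a2 cross 0, and that of Nr4a3 ends just below it, at -0.04, before any adjustment.

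The 3 genes differ in the length the authors' table gives them, and libraries of this series differ in how they represent long genes. Nr4a3 is the longest, at 4394 bases, and falls in the longest of 5 groups of equal size (3866 to 29464 bases), in which the median log2 fold change was -0.11. Nr4a1, at 2660 bases, and Nr4a2, at 3375 bases, fall in the next group, with a median of -0.04. The log2 CPM of Nr4a3 deviated from its own mean by 0.84 in control replicate 1, where the trend for genes of its length stood at 0.15. In TRH replicate 3 Nr4a3 deviated by -0.54 and the trend stood at -0.21. Control replicate 1 had the highest and TRH replicate 3 the lowest value of both the gene and the trend. With offsets that remove the trend from each library, the log2 fold change was -0.50 for Nr4a3 (SE 0.20, edgeR unadjusted p = 0.0334, adjusted p = 0.443), 0.25 for Nr4a1 (SE 0.10, edgeR unadjusted p = 0.031, adjusted p = 0.443) and 0.04 for Nr4a2 (SE 0.14, edgeR unadjusted p = 0.787, adjusted p = 0.928). In that fit 1517 of the 14050 genes tested had an unadjusted p under 0.05, against 1263 with no offsets, and 0 were called. The difference in the trend between groups at the length of Nr4a3 was -0.12, and the gene's own log2 fold change was -0.63. The trend differed between the groups, so an effect of length and one of TRH cannot be told apart here. The cause was not tested.

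**Figure D4:**
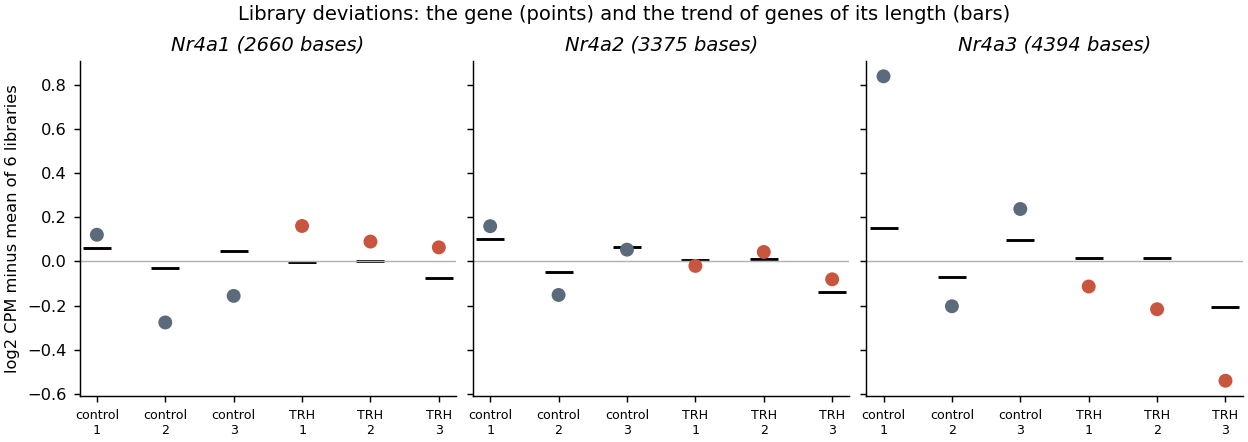
Deviation of log2 CPM from the mean of the 6 libraries (vertical axis) for each gene (points; grey control, red TRH), beside the smoothed deviation of all genes of the same length in that library (black bars). Nr4a3 deviates in the same direction as the trend in control replicates 1, 2 and 3 and in TRH replicate 3, and further than it in each.

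The proportions between the members were also compared within libraries, which removes any factor that scales a whole library. Nr4a1 held 86.6%, 89.4% and 87.8% of the family's summed TPM in control replicates 1, 2 and 3, and 91.4%, 91.2% and 92.3% in TRH replicates 1, 2 and 3. The control libraries gave Nr4a3 7.75 ± 1.61% and Nr4a2 4.29 ± 0.286%, and the TRH libraries gave 4.62 ± 0.538% and 3.76 ± 0.173% (SD, n = 3 each). Every TRH library thus had a larger share of Nr4a1 than every control, although neither Nr4a1 nor any other member was separated on its own. These shares follow from the ratios below and are not a separate result. Separation was also common for such ratios: those of Nr4a1 to other tested genes did not overlap for 29.2% of genes. No such percentage was computed for shares.

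The ratio of Nr4a1 to Nr4a3 was 9.20, 14.4 and 11.5 in control replicates 1, 2 and 3, and 18.3, 18.7 and 23.0 in TRH replicates 1, 2 and 3. The mean was 11.7 for the controls (SD 2.605, n = 3) and 20.03 for the TRH libraries (SD 2.62, n = 3), 1.71 times as high. The groups did not overlap, and the gap between them was wider than either SD. The ratio of Nr4a1 to Nr4a2 was 20.6 ± 1.21 without the hormone and 24.4 ± 1.16 with it, and that of Nr4a2 to Nr4a3 was 0.573 ± 0.141 and 0.821 ± 0.105 (SD, n = 3 each). These groups did not overlap either, but for Nr4a2 over Nr4a3 the highest control (0.701) and the lowest TRH library (0.722) were closer together than either SD. The 3 ratios share their genes and are not independent, and they were compared after the levels had been seen, so no test is given.

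Separation of a ratio was common in these libraries. The ratio of Nr4a1 to another tested gene did not overlap between the groups for 29.2% of genes, that of Nr4a3 for 25.0% and that of Nr4a2 for 12.1%, over the 13936 genes with a value above 0 in every library. With the length trend taken out of each gene, the 3 ratios remained separated. No percentage over all genes was computed for ratios adjusted in this way, so how common such separation is was not tested. The highest control and the lowest TRH library then had log2 ratios of 4.49 and 4.54 for Nr4a1 over Nr4a2. They were -0.53 and -0.46 for Nr4a2 over Nr4a3, and 3.81 and 4.21 for Nr4a1 over Nr4a3. The adjusted log2 difference between groups for Nr4a1 over Nr4a3 was 0.72 in place of 0.79. Unadjusted and without control replicate 1, it was 0.63. For Nr4a2 over Nr4a3 the log2 difference was 0.54 with all libraries and 0.34 without control replicate 1.

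**Figure D5:**
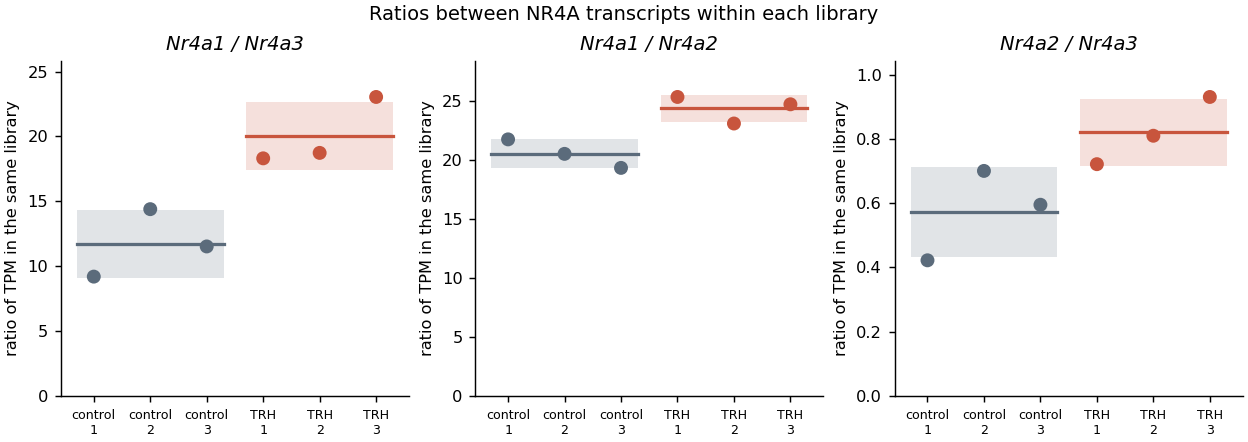
Ratio of TPM between pairs of NR4A genes within each library (vertical axes, each from 0), with controls in grey, TRH in red, the group mean as a line and 1 SD as a band. In each panel the 3 TRH libraries lie above the 3 controls, with the widest gap for Nr4a1 over Nr4a3 (highest control 14.4, lowest TRH library 18.3).

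The members' patterns over the 6 libraries were alike to different degrees. They were compared by the root mean square difference of log2 CPM after centring each gene on its mean. Nr4a1 and Nr4a2 differed by 0.14, Nr4a2 and Nr4a3 by 0.36, and Nr4a1 and Nr4a3 by 0.45. Of the genes tested, 6.35% were closer to Nr4a1 than Nr4a2 was, and 85.6% were closer to it than Nr4a3 was. Seen from Nr4a3, 46.8% of genes were closer than Nr4a1 and 23.6% closer than Nr4a2. Seen from Nr4a2, 21.8% were closer than Nr4a1 and 80.2% closer than Nr4a3. The gene closest to Nr4a1 was ENSRNOG00000017679 (2207 bases), at 0.03, against a median of 0.26 over all genes. The gene closest to Nr4a3 was ENSRNOG00000015560 (3867 bases), also at 0.03 against a median of 0.46, and that closest to Nr4a2 was ENSRNOG00000012718 (3932 bases), at 0.02 against 0.22. ENSRNOG00000015560 had 30.9, 15.7 and 21.03 CPM in control replicates 1, 2 and 3, and 16.5, 14.7 and 11.9 CPM in TRH replicates 1, 2 and 3. It thus repeated the high control replicate 1 and low TRH replicate 3 of Nr4a3, and its edgeR adjusted p was 0.507. With 14050 genes and 6 libraries, close matches of this kind are a description of these libraries only.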

How the data were processed

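Libraries were made from total RNA of GH3 cells and sequenced on an Illumina XTen instrument, per the labels' protocols. HISAT2 and bedtools are listed by the submitters' processing notes; the sources used here do not give build, annotation, strand setting or counting rule. One table deposited by the authors has raw counts per Ensembl gene, and a second repeats these deposited counts with a gene length, FPKM and TPM. The authors' FPKM and TPM were recomputed from counts and length to rounding error. The members and gene lists were chosen with earlier results of these data known.

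Counts were tested with edgeR 4.0.16 (R 4.3.3): TMM scaling, filterByExpr (14050 of 18413 genes kept, all 3 members among them), quasi-likelihood F-test, Benjamini-Hochberg adjustment over the genes kept, threshold 0.05. Standard errors come from the coefficient and its F value. Alternatives used DESeq2 1.42.0, limma 3.58.1, other filters and scalings, length offsets (loess, span 0.5) and libraries left out. The edgeR, DESeq2 and voom fits were also run on simulated counts with known changes, and the outcome of that step is not reported here. The genes reported are the 3 members and, for each, the tested gene with the most similar centred log2 CPM. Replicate numbers were not treated as pairs.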

Additional observations from a re-analysis of the deposited data

How the results depend on the processing

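No member was called under any of 16 alternatives per gene. Nr4a1 was higher with TRH in 16 of 16 and Nr4a3 lower in 16 of 16. With 1 library left out in turn, the log2 fold change ran from 0.12 to 0.32 for Nr4a1, from -0.13 to 0.03 for Nr4a2 and from -0.85 to -0.31 for Nr4a3. The direction of Nr4a2 turned with length offsets (0.039), without control replicate 1 (0.027) and with control replicate 1 and TRH replicate 3 both left out (0.057); the cause was not tested. Over all genes, edgeR's 0 calls (1263 genes had an unadjusted p under 0.05) became 106 in DESeq2, 1 with those libraries both left out, and 0 to 1 with 1 library left out, the 1 without TRH replicate 3; the cause was not tested. In the fit with a replicate block, the log2 fold change was 0.21 for Nr4a1, -0.04 for Nr4a2 and -0.59 for Nr4a3, and 0 genes were called, with 1232 at an unadjusted p under 0.05. Deviations of equal-numbered libraries correlated at 0.29, -0.26 and -0.12 for numbers 1, 2 and 3. Those of unequal-numbered libraries ran from -0.34 (control replicate 2 with TRH replicate 1) to 0.46 (control replicate 2 with TRH replicate 3). By raw counts, which weight longer genes more by construction, the family's shares were 82.8% for Nr4a1, 5.13% for Nr4a2 and 12.04% for Nr4a3 in controls, and 88.1%, 4.58% and 7.34% with TRH. Nr4a2 had the fewest counts of the 3, at 275 to 342 counts per library.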
